A study of Mus musculus with 8 samples.

Results

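Aminoacyl-tRNA synthetases are the enzymes that load each amino acid onto its transfer RNA (tRNA). The genes described here are 35 synthetase genes of the 54427 listed in the table, taken by symbol: 19 that encode cytosolic enzymes and 16 that encode mitochondrial enzymes, whose symbols end in 2. All 35 symbols were found. A mean of at least 1 CPM (the level unit defined below) was reached by 34 of them, all 19 cytosolic and 15 mitochondrial, and these were tested. Pars2, the mitochondrial prolyl-tRNA synthetase gene, fell under that level and is described by its values.

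The RNA came from primary pancreatic acinar cells, the enzyme-secreting cells of the exocrine pancreas, of wild-type (WT) mice. The cells had been exposed to cholecystokinin octapeptide (CCK), a secretory hormone that injures acinar cells at high concentration, at 1 µM for 6 h. By their titles, 4 libraries (AP) carry this injury alone and 4 (AP_OCA) carry it together with OCA, which commonly stands for obeticholic acid, a drug that activates FXR, the nuclear receptor for bile acids. The labels give 2.5 µM as the OCA concentration in a text that is the same for all 8 libraries, so the absence of OCA from AP rests on the titles. No uninjured cells were analysed here. Nothing in the labels says whether replicates came from separate mice or preparations, so p-values measure only the spread between these samples, which may be technical, and the age and sex of the mice are not given.

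Each synthetase recognises 1 amino acid, except that Eprs encodes a fused enzyme for glutamate and proline. Gars and Kars serve both the cytosol and the mitochondria. Several cytosolic synthetases sit together in a large multi-synthetase complex held by the scaffold proteins AIMP1, AIMP2 and EEF1E1, whereas others act on their own. The acinar cell makes more protein than most cells of the body, and charged tRNA is the direct supply for that synthesis. When tRNA is uncharged or the endoplasmic reticulum is stressed, the transcription factor ATF4 is translated and switches on amino acid transporters, amino acid synthesis enzymes and many, but not all, of the cytosolic synthetase genes.

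Levels are given in CPM, here the deposited value returned to a linear scale and set to a sum of 1000000 per library. The authors' values had been brought to a common distribution, so a CPM is a position in that distribution and not a share of reads. Fold changes are AP_OCA over AP, as differences of log2(CPM + 1) with their standard errors (SE). A gene is said to have risen or fallen where the Benjamini-Hochberg adjusted p of limma over all tested genes was under 0.05.

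The libraries listed 15394 to 16640 genes above 0, apart from AP_OCA replicate 2 with 21010. That library correlated with the other 7 at 0.63 to 0.706 across 10894 genes, which are not independent replicates, whereas the other 7 correlated among themselves at 0.861 to 0.98. All 12 lymphocyte markers exceeded every other library by over 2-fold there, with a summed level of 12720 CPM against 20.8 to 71.0 elsewhere, and Cd3e, a T cell receptor subunit, was listed at 0 in the other 7. Most of that sum came from Cd74 alone, at 9263 CPM there and 20.3 to 40.1 in the other 7. Summed acinar enzyme markers stood at 372000 CPM in AP_OCA replicate 2. They stood at 420600 to 432200 in AP and, without overlap, at 381600 to 417300 in AP_OCA replicates 1, 3 and 4. This sum rests on a few genes at top positions of the common distribution, such as Ctrb1 at 116500 CPM in all 8 libraries. Of the 10 acinar markers, 2 lay over 2-fold under the other 7 in AP_OCA replicate 2, and 1 lay above them. The 2 low ones were Amy2a5 at 353 CPM (1770 to 2954 elsewhere) and Cuzd1 at 203 (1463 to 1901). The main results are therefore given for all 8 libraries and without AP_OCA replicate 2. In bulk samples fewer cells of a type and less RNA per cell cannot be told apart. The summed levels of the cell type markers below are given because they moved with the groups or with that library, and their part in the synthetase results was not tested.

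Every cytosolic synthetase gene had a higher mean level per kilobase of transcript over the 7 libraries than every mitochondrial one apart from Lars2. Some ranges of single libraries overlapped, as for Dars and Yars2. Per kilobase of transcript and averaged over the 7 libraries, Gars, the glycyl-tRNA synthetase gene, had the highest level at 122 CPM per kilobase, with single libraries between 83.6 and 138. Nars (asparaginyl) followed at 80.5, between 62.1 and 99.1, and Wars (tryptophanyl) at 57.6, between 50.9 and 67.3. The ranges of Gars and Nars overlapped, as did those of Nars and Wars. At the other end Dars, the aspartyl-tRNA synthetase gene, stood at 7.69 CPM per kilobase, between 3.77 and 11.2. Among mitochondrial genes Lars2 (leucyl) stood at 55.9 per kilobase, with a wide range of 15.1 to 109, followed by Yars2 (tyrosyl) at 5.28, between 3.97 and 6.42, with no overlap between these 2. The remaining mitochondrial genes reached at most 4.81 per kilobase, which is the level of Fars2 (phenylalanyl). The summed level of the 19 cytosolic genes was 1990 ± 64.9 CPM in AP (SD, n = 4) and 1914 ± 117 in AP_OCA replicates 1, 3 and 4 (n = 3), with overlapping ranges. It was 711 CPM in AP_OCA replicate 2.

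**Figure D1:**
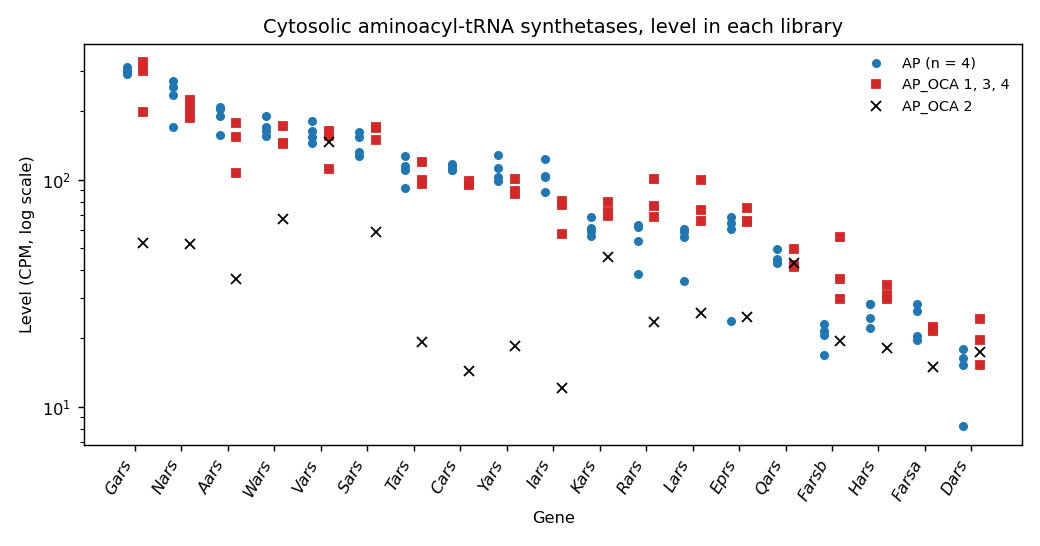
Level of each cytosolic synthetase gene in each library (vertical axis, CPM on a log scale; genes ordered by their mean over the 7 libraries). Circles are the AP libraries, squares AP_OCA replicates 1, 3 and 4, and crosses AP_OCA replicate 2; the crosses of Cars, Iars, Tars and Yars lie far below the other points of those genes, between 12.2 and 19.4 CPM.

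In the comparison of AP_OCA with AP, which asks what OCA changed in injured cells, the synthetase genes mostly did not pass the test. Without AP_OCA replicate 2, 1 of 34 tested members rose, none fell and 33 did not pass, where 2.44% of all 10894 tested genes passed. That gene was Farsb, the beta subunit of phenylalanyl-tRNA synthetase. The 19 cytosolic members had a median log2 fold change of -0.08, with 8 above 0 and 11 below, and the 15 mitochondrial members had a median of -0.19, with 4 above 0 and 11 below. The median over all tested genes was 0. An unadjusted p under 0.05 was found for 4 cytosolic members (Farsb, Lars, Rars and Iars) and 1 mitochondrial member (Aars2), a share below the 25.7% of all tested genes (11.8% higher and 13.9% lower). The groups did not overlap for 5 cytosolic members that were higher in AP_OCA (Farsb, Hars, Kars, Lars and Rars) and 2 that were lower (Cars and Iars), where 23.2% of all tested genes were separated, 11.1% upwards and 12.1% downwards. No mitochondrial member separated the groups. With all 8 libraries 0 of 34 members and 0 of 11311 genes passed limma (0% called), and no member had an unadjusted p under 0.05, whereas 16.2% of all tested genes did, 7.31% higher and 8.87% lower. The groups of 8 libraries did not overlap for 2 members, Cars and Iars, both lower in AP_OCA, where 15.3% of all tested genes were separated, 6.75% upwards and 8.57% downwards. The medians were then -0.18 for the cytosolic and -0.31 for the mitochondrial members, against -0.01 over all tested genes. Library quality weights, another limma setting, called 1 of 34 members in the 8 libraries, Farsb, where they called 1052 of 11311 genes.

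**Figure D2:**
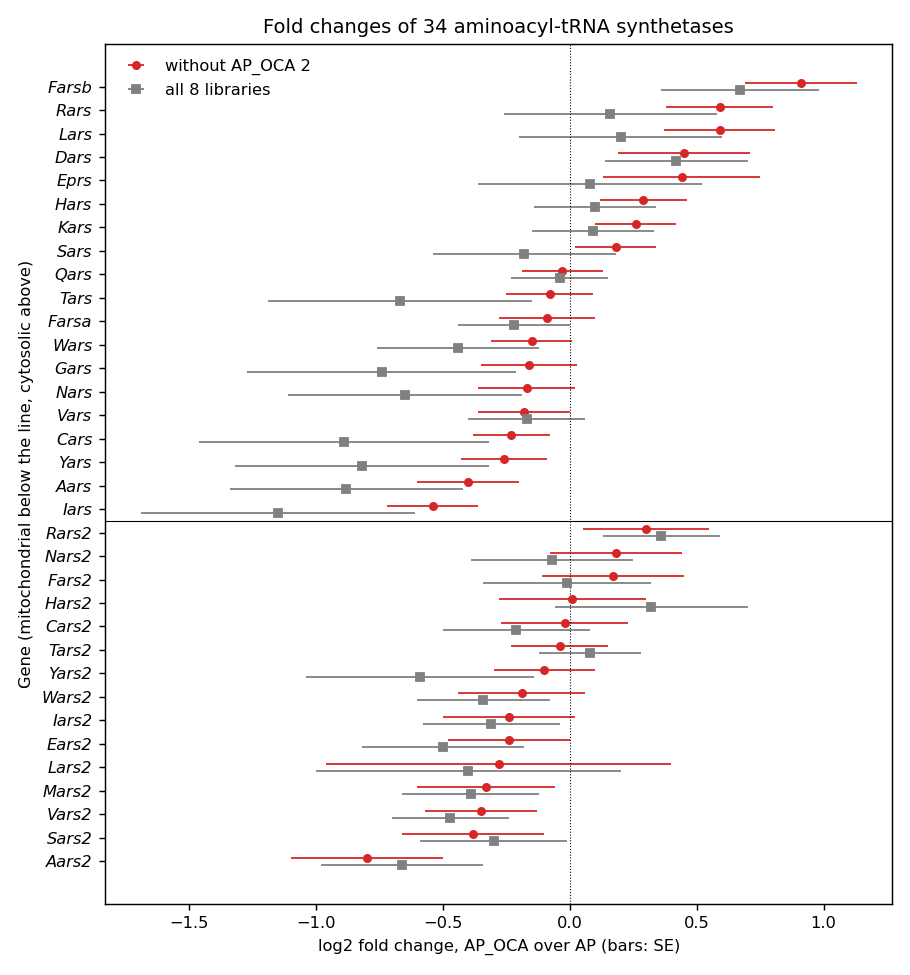
Log2 fold changes of the 34 tested synthetase genes, AP_OCA over AP (horizontal axis; bars are SE), without AP_OCA replicate 2 (circles) and with all 8 libraries (squares). Farsb at 0.91 and Iars at -0.54 are the ends of the cytosolic range without that library, and with it most cytosolic squares below 0 lie further left.

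Phenylalanyl-tRNA synthetase is built from 2 kinds of subunit, the catalytic alpha chain from Farsa and the beta chain from Farsb. Farsb passed where Farsa did not, which does not by itself show a difference between them. In mm10 Farsb lies on chromosome 1 (78417975 to 78488897, minus strand) and Farsa on chromosome 8 (84856989 to 84869257, plus strand). Farsb stood at 23.0, 20.7, 16.9 and 21.6 CPM in AP replicates 1 to 4, at 29.8, 36.5 and 55.7 in AP_OCA replicates 1, 3 and 4, and at 19.5 in AP_OCA replicate 2. The 3 AP_OCA libraries lay above every AP library, with the highest value in replicate 4, while replicate 2 lay within the AP range. Farsb rose by 0.91 ± 0.22 (SE, adjusted p = 0.0486 by limma), from 20.6 ± 2.64 CPM (SD, n = 4) to 40.7 ± 13.4 (n = 3). With all 8 libraries the value was 0.67 (adjusted p = 0.32).

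Farsa stood at 20.5, 19.7, 28.3 and 26.3 CPM in AP and at 22.3, 21.6 and 22.0 in AP_OCA replicates 1, 3 and 4, with 14.9 in replicate 2. Its AP_OCA values lay inside the AP range, and its log2 fold change was -0.09 ± 0.19 (adjusted p = 0.801). The ratio of Farsb to Farsa was 1.12, 1.05, 0.597 and 0.82 in AP, 1.33, 1.69 and 2.53 in AP_OCA replicates 1, 3 and 4, and 1.31 in replicate 2, so that all 4 AP_OCA libraries lay above all 4 AP libraries. On the log2 scale its mean was higher by 0.92 over 8 libraries and by 1.03 over 7. This ratio was formed after the values of both genes were seen, so it is given as a description. A permutation test on it is not used here for that reason. The transcripts differ in GC content, 46.3% for Farsb and 56.6% for Farsa, and after each library's trend on transcript length and GC was taken out the fold change of Farsb was 0.65 (adjusted p = 0.0774). Leaving out 1 further library, Farsb passed only without AP_OCA replicate 1, at 1.11, and otherwise stood at 0.67 to 0.97 (adjusted p from 0.0819 to 0.114). Beside this change, the summed ductal markers were 145 to 224 CPM in AP and 270 to 320 in AP_OCA replicates 1, 3 and 4, with 27.6 in replicate 2. Of the 7 ductal markers only Cftr was at 0 in any library, in 1, and their part in the change was not tested.

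Among the 7 synthetases of the multi-synthetase complex measured here, 5 were above 0 without AP_OCA replicate 2 and none passed. The lowest p of the 7 was that of Iars, which was below 0 and is described with the ATF4-listed genes, and the next lowest were those of Rars (arginyl) and Lars (leucyl). Rars stood at 53.8, 62.8, 38.4 and 61.8 CPM in AP, at 68.1, 76.6 and 100 in AP_OCA replicates 1, 3 and 4, and at 23.7 in replicate 2. Lars stood at 60.5, 58.7, 35.8 and 55.8 in AP, at 65.7, 73.4 and 99.6 in AP_OCA, and at 25.8 in replicate 2. In both genes the 3 AP_OCA libraries lay just above the AP libraries, AP replicate 3 was lowest of the 7, AP_OCA replicate 4 was highest, and replicate 2 lay below all others. The log2 fold changes were 0.59 ± 0.21 for Rars (adjusted p = 0.106) and 0.59 ± 0.22 for Lars (adjusted p = 0.113), and with all 8 libraries 0.16 and 0.20. Dars (0.45 ± 0.26), Eprs (0.44 ± 0.31) and Kars (0.26 ± 0.16) were also above 0, Qars, the glutaminyl enzyme, was at -0.03 ± 0.16, and Iars was below 0. The median of the 7 was 0.44 without AP_OCA replicate 2, 0.22 without AP replicate 3 as well, and 0.09 with all 8 libraries. Without AP_OCA replicate 2 it was 0.26 once each library's trend on transcript length and GC was taken out, and 0.24 with library quality weights.

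The scaffold genes of the complex did not pass either. Aimp1 stood at 13.1, 16.2, 15.1 and 12.9 CPM in AP and at 22.6, 15.5 and 32.9 in AP_OCA replicates 1, 3 and 4 (log2 fold change 0.63 ± 0.23, adjusted p = 0.118), with 28.0 in replicate 2 (0.70 with all 8 libraries, adjusted p = 0.265). Eef1e1 was also at 0.63 ± 0.23 (adjusted p = 0.118), and at 0.36 with all 8 libraries, with 6.45, 7.61, 9.32 and 6.63 CPM in AP, 8.84, 12.3 and 15.9 in AP_OCA, and 5.28 in replicate 2. Aimp2 stood at 9.78, 9.18, 13.4 and 6.30 CPM in AP and at 9.36, 7.96 and 3.76 in AP_OCA (-0.44 ± 0.29, adjusted p = 0.355), with 1.07 in replicate 2. For all 3 scaffolds the groups overlapped.

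AP replicate 3 and AP_OCA replicate 4 held most of the extreme values of the cytosolic genes. AP replicate 3 was the lowest of the 7 libraries for 7 of the 19, Dars, Eprs, Farsb, Lars, Nars, Rars and Tars, and the highest for 6, where 20.7% of all tested genes had their lowest and 24% their highest value there. AP_OCA replicate 4 was the lowest for 7 and the highest for 7, against 31% and 26.6% of all tested genes. Eprs stood at 23.8 CPM in AP replicate 3 against 60.3 to 74.7 in the other 6, and Dars at 8.21 against 15.2 to 24.3. The 7 genes lowest in AP replicate 3 have the 7 lowest transcript GC contents of the cytosolic members, from 41.2% to 47.2%. Over the 34 members the deviation of AP replicate 3 from the mean of the 7 libraries followed GC content with a Spearman's rho of 0.623, and over 10825 genes with one of 0.652, whereas in the other 6 libraries rho over the members lay between -0.453 and 0.244. These are correlations across genes, given as a description. AP_OCA replicates 3 and 4 had the opposite sign, at -0.453 and -0.366.

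Fold changes were related to GC content among the members and among all genes. Without AP_OCA replicate 2 the Spearman's rho between log2 fold change and GC content was -0.479 over the 34 members and -0.364 over 10825 genes. Of 16 members under 50% GC, 8 were above 0 (median -0.01), where 64.7% of all such genes were (median 0.15). Of 18 members at 50% or over, 4 were above 0 (median -0.17), where 37.1% of all such genes were (median -0.16). After the length and GC trend was taken out of each library, 5 of the 19 cytosolic members changed sign (Aars, Cars, Qars, Vars and Wars, none of which had passed), and the cytosolic median was 0.06.

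**Figure D3:**
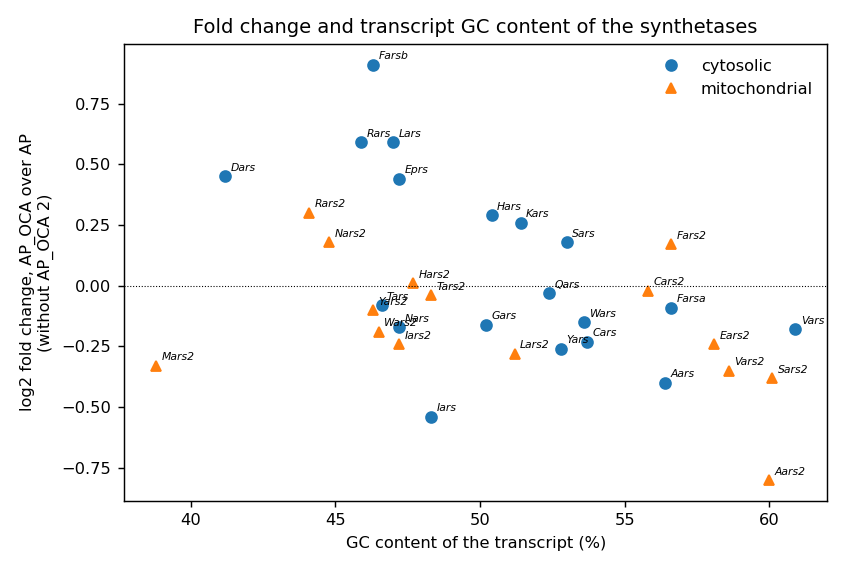
Log2 fold change without AP_OCA replicate 2 (vertical axis, AP_OCA over AP) against the GC content of the longest annotated transcript (horizontal axis, percent) for 34 synthetase genes, cytosolic as circles and mitochondrial as triangles. Members with lower GC content tend to lie higher (rho -0.479), and Farsb at 46.3% lies above all others.

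Textbook accounts list 11 of the 19 cytosolic synthetases measured here as genes that ATF4 switches on: Aars, Cars, Eprs, Gars, Iars, Lars, Nars, Sars, Tars, Wars and Yars. Without AP_OCA replicate 2 they had a median log2 fold change of -0.16, with 3 above 0 and 8 below, and none passed. The other 8 cytosolic synthetases had a median of 0.27, with 5 above 0 and 3 below, and 1 rose, Farsb. With all 8 libraries the medians were -0.67 for the 11, with 2 above 0 and 9 below, and 0.09 for the other 8, and none passed. The difference between these medians was not tested, and without AP_OCA replicate 2 the median of the 11 was 0.01 once the length and GC trend was taken out. No such median was computed for the other 8, so the sets cannot be compared after that correction.

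The ATF4 response element that such genes share has the core TGATGNAA, where N is any base. Promoter sequences from RefSeq (GRCm38.p6, the assembly behind mm10), reaching from 250 bases before to 50 after the annotated start, were matched by symbol for 26 of the 35 members and searched on both strands, on which the core reads TGATGNAA or TTNCATCA. The core was found in 5 members, Aars, Gars, Iars, Tars and Yars, all of them among the 7 ATF4-listed synthetases with a promoter sequence. It was found in 0 of 5 other cytosolic and 0 of 14 mitochondrial members. It was present for 4.51% of all 27025 genes and in 3.97% of all 32851 promoters of the same length, and for 8 of 27 genes on a list of other ATF4 targets. A match of letters is a description and not evidence of binding. Matches in the 5 genes are shown, 1 for each, on the gene's own strand with the core in capitals and 10 bases on either side, because all 5 genes are among those that stand far below the other libraries in AP_OCA replicate 2, described below.
Aars, 10 bases after the start, chr8:111033841-111033868 (plus strand): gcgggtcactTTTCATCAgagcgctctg
Gars, 30 bases before the start, chr6:55037961-55037988 (plus strand): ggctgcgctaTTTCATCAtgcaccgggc
Iars, 8 bases after the start, chr13:49682127-49682154 (plus strand): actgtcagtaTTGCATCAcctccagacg
Tars, 15 bases before the start, chr15:11399656-11399683 (minus strand): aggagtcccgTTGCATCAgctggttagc
Yars, 4 bases after the start, chr4:129189896-129189923 (plus strand): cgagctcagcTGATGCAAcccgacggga

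Of the 5 genes with the core, Iars, the isoleucyl-tRNA synthetase gene on chromosome 13 (49682100 to 49734267, plus strand), was furthest below 0. It stood at 104, 123, 88.2 and 103 CPM in AP replicates 1 to 4, at 77.4, 80.5 and 57.5 in AP_OCA replicates 1, 3 and 4, and at 12.2 in replicate 2. All 4 AP_OCA libraries lay below all 4 AP libraries. The log2 fold change was -0.54 ± 0.18 without replicate 2 (adjusted p = 0.0976 by limma) and -1.15 with it (adjusted p = 0.323), and it passed only with library quality weights without replicate 2, at -0.46 (adjusted p = 0.0336). Aars, the alanyl-tRNA synthetase gene, stood at 158, 191, 208 and 205 CPM in AP, at 178, 154 and 107 in AP_OCA, and at 36.7 in replicate 2, with overlapping groups (-0.40 ± 0.20, adjusted p = 0.217). Yars (-0.26 ± 0.17), Gars (-0.16 ± 0.19) and Tars (-0.08 ± 0.17) overlapped too.

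Cars, the cysteinyl-tRNA synthetase gene, has no promoter entry in the table used. It stood at 110, 110, 115 and 117 CPM in AP, at 95.5, 98.2 and 94.7 in AP_OCA replicates 1, 3 and 4, and at 14.4 in replicate 2. The groups were tight and did not overlap, but the difference was small, at -0.23 ± 0.15 (adjusted p = 0.347), and it was 0.02 with the length and GC trend removed. Gars stood at 314, 300, 297 and 291 CPM in AP and at 300, 328 and 199 in AP_OCA, so that AP_OCA replicate 4 alone was low, with 52.8 in replicate 2. Nars stood at 235, 255, 170 and 272 in AP and at 223, 204 and 187 in AP_OCA (-0.17 ± 0.19), with 52.2 in replicate 2. Wars stood at 164, 155, 191 and 170 in AP and at 145, 172 and 144 in AP_OCA (-0.15 ± 0.16), with 66.8 in replicate 2. In all 3 genes the groups overlapped apart from replicate 2.

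AP_OCA replicate 2 had the lowest level of all 8 libraries for 14 of 19 cytosolic members and for 7 of 15 tested mitochondrial members, where 36.9% of all 11311 genes had their lowest level there. It was under the lowest of the other 7 by over 2-fold for 9 cytosolic members and for 1 mitochondrial member, Yars2, where 20.4% of all genes did so. The 9 cytosolic genes were all on the ATF4 list: Aars, Cars, Gars, Iars, Nars, Sars, Tars, Wars and Yars, by 2.16-fold (Wars) to 6.57-fold (Cars). Neither of the remaining 2 listed genes, Eprs and Lars, nor any of the 8 unlisted cytosolic genes lay that far below. Vars, the valyl-tRNA synthetase gene, stood at 146 CPM in replicate 2, within the 111 to 182 of the other 7, and Qars at 42.9, within 41.4 to 49.2. The 5 genes with the core in their promoter were 2.93-fold (Aars) to 4.75-fold (Tars) below. This is 1 library, so the pattern has no replicate check.

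Other ATF4 targets stood low in the same library. Of 30 such genes, 28 were under the lowest of the other 7 by over 2-fold, and their summed level was 2981 CPM against 10150 to 14060 elsewhere. Asns, the asparagine synthetase, stood at 58.8 CPM in it, Trib3, a pseudokinase that dampens the response, at 11.1, Chac1 at 115 and Atf4 at 108. Lymphocyte markers moved in the opposite direction there, as given above, as did 6 of 9 macrophage and myeloid markers (summed level 800 CPM against 94.6 to 177) and 4 of 8 stellate cell and fibroblast markers (487 against 107 to 233), each by over 2-fold. None of the macrophage and stellate markers was at 0 in any library. Islet markers were low there, with all 9 under the other 7 by over 2-fold (summed level 9.09 CPM against 511 to 2157). The part of these cells in the low synthetase levels was not tested.

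**Figure D4:**
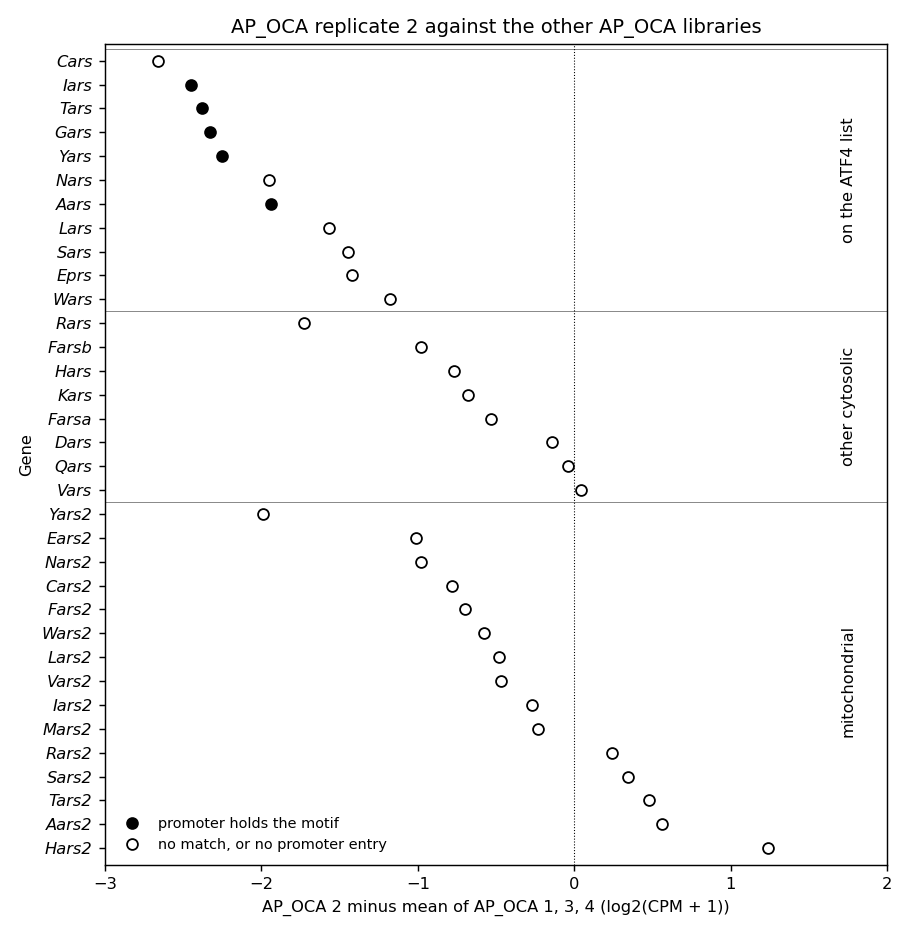
Difference between AP_OCA replicate 2 and the mean of AP_OCA replicates 1, 3 and 4 for each tested synthetase gene (horizontal axis, difference of log2(CPM + 1)), in 3 blocks of genes. Filled circles mark promoters that hold the ATF4 core, and all 5 lie between -2.45 (Iars) and -1.94 (Aars); Hars2 is highest at 1.24.

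Without that library 22 of the 30 ATF4 targets were below 0 and 8 above in the comparison of AP_OCA with AP, with a median of -0.20. Most of the 30 have transcripts of 50% GC or over. Among all tested genes of that GC content the median was -0.16 and 37.1% were above 0. The values of the 30 are given without length and GC correction, and the part of GC content in them was not tested. Of the 30, 1 rose, 2 fell and 27 did not pass, where 0.854% of all tested genes rose and 1.59% fell. An unadjusted p under 0.05 was found for 12 lower and 4 higher genes, where 13.9% and 11.8% of all tested genes had one. With all 8 libraries 29 of 30 were below 0, the median was -0.82, and none passed, with Ddit3 at 0.90 (adjusted p = 0.26), Chac1 at -1.99 (adjusted p = 0.265) and Atf3 at -1.65 (adjusted p = 0.293). Atf4 itself stood at 481, 469, 509 and 457 CPM in AP and at 452, 419 and 293 in AP_OCA replicates 1, 3 and 4, so that the groups did not overlap (-0.33 ± 0.18, adjusted p = 0.27). Ddit3, the transcription factor CHOP that acts with ATF4, rose by 1.08 ± 0.20 (adjusted p = 0.0271), with 13.0, 16.5, 16.4 and 19.3 CPM in AP and 41.1, 27.4 and 39.3 in AP_OCA. Chac1, which degrades glutathione, fell by 1.19 ± 0.20 (adjusted p = 0.0241), with 2362, 2614, 3190 and 1901 CPM in AP and 1204, 1228 and 868 in AP_OCA. Atf3, a stress-induced transcription factor, fell by 0.86 ± 0.19 (adjusted p = 0.0403), with 588, 550, 634 and 509 CPM in AP and 345, 374 and 236 in AP_OCA. For these 3 genes the groups did not overlap. Asns stood at 553, 524, 569 and 528 CPM in AP and at 469, 578 and 498 in AP_OCA (-0.08 ± 0.16), and Trib3 at 173, 193, 242 and 228 in AP and at 194, 183 and 152 in AP_OCA (-0.24 ± 0.18), with overlap in both. Among the cell type markers that passed, Col1a1, a fibroblast collagen, fell by 1.38 ± 0.32 (adjusted p = 0.0488), with 25.6, 25.2, 33.7 and 32.3 CPM in AP and 16.3, 14.3 and 4.82 in AP_OCA. Csf3r, a neutrophil receptor, fell by 1.58 ± 0.26 (adjusted p = 0.0241), with 10.4, 9.36, 5.89 and 8.51 CPM in AP and 3.24, 1.77 and 1.63 in AP_OCA. The fibroblast and stellate markers together were at 176 to 233 CPM in AP and 107 to 163 in AP_OCA replicates 1, 3 and 4. Of these 8 markers 6 were below 0 and 2 above, Dcn and Lum (median log2 fold change -0.72). An unadjusted p under 0.05 was found for 5 lower and 0 higher. The endothelial markers were at 64.6 to 84.8 CPM in AP and 33.8 to 61.4 in AP_OCA, with 164 in replicate 2, and none of them was at 0. Of these 8 markers 7 were below 0 and 1 above, Egfl7 at 0.53 ± 0.24 (median -0.67). An unadjusted p under 0.05 was found for 5 lower and 1 higher, Egfl7. Neither Col1a1 nor Csf3r passed with all 8 libraries (adjusted p = 0.305 and 0.26). The part of these cells in the ATF4 target and synthetase values was not tested.

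Genes that act on tRNA beside or after charging were taken as a further list, of which 26 were tested. Without AP_OCA replicate 2, 1 of the 26 passed, where 2.44% of all tested genes passed and 0.854% rose. This was Ptrh2, a mitochondrial peptidyl-tRNA hydrolase that frees tRNA from stalled chains. It rose by 1.08 ± 0.23 (adjusted p = 0.039), from 2.77, 3.45, 2.72 and 2.17 CPM in AP to 6.47, 6.06 and 8.51 in AP_OCA, with 9.58 in replicate 2, so that all 4 AP_OCA libraries lay above all 4 AP libraries. With all 8 libraries it was at 1.19 (adjusted p = 0.26) and did not pass. The list, which also holds elongation factors and tRNA-modifying enzymes, had a median of 0.07 with 14 above 0 and 12 below.

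No mitochondrial synthetase passed in either fit. Aars2, the mitochondrial alanyl-tRNA synthetase gene, had the lowest p of them, at 2.97, 4.04, 4.71 and 3.55 CPM in AP, 3.31, 1.77 and 0.725 in AP_OCA replicates 1, 3 and 4, and 3.04 in replicate 2. AP_OCA replicates 3 and 4 lay below all AP libraries while replicate 1 lay among them. The log2 fold change was -0.80 ± 0.30 (adjusted p = 0.124 by limma), and it passed only without AP_OCA replicate 1 as well, at -1.13 (adjusted p = 0.0377). Without AP_OCA replicate 4 instead it was -0.47. Its transcript has the third highest GC content of the members, and the value was -0.42 with the length and GC trend removed. Vars2 (valyl) stood at 8.21, 7.54, 9.40 and 7.65 CPM in AP, at 8.26, 5.16 and 5.50 in AP_OCA and at 4.18 in replicate 2 (-0.35 ± 0.22, adjusted p = 0.326). Sars2 (seryl) stood at 3.96, 5.77, 8.003 and 5.08 CPM in AP, at 5.63, 4.58 and 2.41 in AP_OCA and at 5.35 in replicate 2 (-0.38 ± 0.28). Mars2 (methionyl) stood at 3.25, 4.87, 6.09 and 3.19 in AP, at 3.55, 3.96 and 2.19 in AP_OCA and at 2.55 in replicate 2 (-0.33 ± 0.27). In these 3 genes AP replicate 3 was the highest library and the groups overlapped. Rars2 (0.30 ± 0.25) was furthest above 0. AP replicate 3 had the highest of the 7 values for 8 of the 15 and AP_OCA replicate 4 the lowest for 7, where 24% and 31% of all tested genes did so.

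Yars2 was the mitochondrial member that stood apart most in AP_OCA replicate 2, at 2.79 CPM. It stood at 14.9, 15.9, 13.2 and 16.7 in AP and at 18.01, 11.1 and 13.8 in AP_OCA replicates 1, 3 and 4, with overlap (-0.10 ± 0.20). Hars2, the mitochondrial histidyl-tRNA synthetase gene, was the reverse, at 9.80 CPM in replicate 2, against 4.17, 4.65, 2.17 and 3.49 in AP and 2.17, 4.78 and 4.17 in the other AP_OCA libraries. Hars2 (chromosome 18, 36783008 to 36792562, plus strand) starts inside Hars (36766528 to 36783205, minus strand), and the sources used here do not say whether counting used strand, so reads from their overlap cannot be assigned. Hars stood at 18.2 CPM in replicate 2 against 22.3 to 34.3. Pars2 stood at 0.710, 0.138, 0.219 and 0.393 CPM in AP and at 0.225, 0.113 and 0.129 in AP_OCA replicates 1, 3 and 4, which are among the 10 lowest distinct values above 0 of each library, and at 1.88 in replicate 2.

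**Figure D5:**
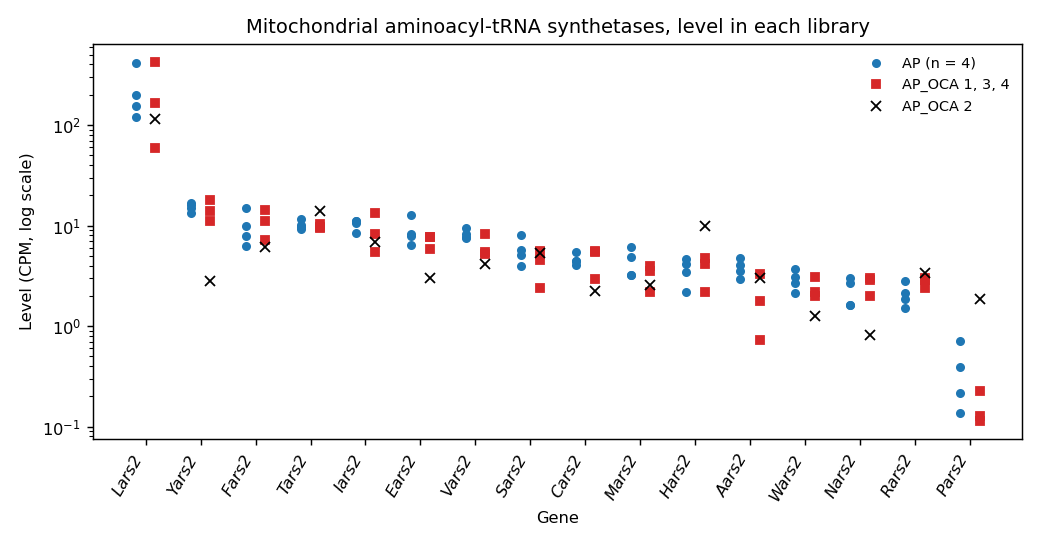
Level of each mitochondrial synthetase gene in each library (vertical axis, CPM on a log scale; genes ordered by their mean over the 7 libraries). Circles are the AP libraries, squares AP_OCA replicates 1, 3 and 4, and crosses AP_OCA replicate 2; Lars2 spreads from 58.9 to 423 CPM while Yars2 and the others lie at 18.01 or below.

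Lars2 varied widely within both groups. It stood at 119, 153, 196 and 409 CPM in AP replicates 1 to 4, at 423, 167 and 58.9 in AP_OCA replicates 1, 3 and 4, and at 116 in replicate 2. The highest and the lowest libraries were both AP_OCA libraries, and the log2 fold change of -0.28 ± 0.68 had the largest SE of the 34 members (adjusted p = 0.834). Leaving out 1 further library moved it between -0.97 and 0.44. The row CT010467.1, annotated as ribosomal RNA and looked at after the values were seen, took a similar course, at 818, 1097, 1075 and 1770 CPM in AP, 2053, 925 and 261 in AP_OCA, and 396 in replicate 2. The highest, second highest and lowest of the 8 libraries were the same in both rows. The mitochondrial ribosomal RNAs did not share this order, with mt-Rnr1 highest in AP replicate 2 at 268 CPM and lowest in AP replicate 3 at 63.9. Whether ribosomal RNA reads contribute to the Lars2 row was not tested.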

How the data were processed

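Total RNA was converted to sequencing libraries with a SMARTER kit, per the labels' protocols, and processing used the mm10 build, per the submitters' processing notes. The aligner, counter and annotation are not given in the sources used here. The authors deposited log2 values for 54427 genes, 30191 of them at the lowest value, -6.64, in all 8 libraries. This is the log2 of 0.01, and the libraries share 1 highest value, as after quantile normalisation. Groups and columns were mapped by sample titles.

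Values were returned to a linear scale, less 0.01, and scaled to a library sum of 1000000 (CPM). Read depth is unknown; 1 CPM corresponded to step 10 to 15 of the ordered distinct values in 7 libraries and step 66 in AP_OCA replicate 2. Genes averaging 1 CPM or more were tested on log2(CPM + 1) with limma 3.58.1 (R 4.3.3; trend, robust), tested on simulated data. Members and lists were chosen with earlier results of these data known. The genes given with all values were, in both subgroups, those called, those with the lowest p (4 without AP_OCA replicate 2, 2 with it), the most abundant per kilobase (3 cytosolic, 2 mitochondrial), the extremes of AP_OCA replicate 2, 8 related genes and called genes of the other lists. Other values were chosen after they were seen. Lengths, GC content and positions came from GENCODE M21. Alternatives were pseudocounts, filters, scalings, weights, a replicate block, length and GC correction, and each library left out. 1 promoter sequence is not reported here.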

Additional observations from a re-analysis of the deposited data

Results flagged for a closer look

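Dixon's test at the 95% level was applied to the 4 libraries of each group for the 34 tested members, 68 groups in all, of which chance flags about 1 in 20. It set 3 values apart, and all 3 were the lowest value of AP_OCA replicate 2. Cars stood at 14.4 CPM there, with the next lowest AP_OCA library at 94.7 and the highest at 98.2. For Yars the value was 18.5 CPM, with the other AP_OCA libraries between 86.7 and 101. Farsa stood at 14.9 CPM, against 21.6 to 22.3, which is a smaller gap than for Cars or Yars but a large one beside the closeness of the other 3 libraries.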

How the results depend on the processing

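With all 8 libraries, no member passed except with library quality weights (1 cytosolic, Farsb, among 1052 genes; mitochondrial median -0.03). Leaving out 1 library gave 0 to 266 genes and 0 to 1 cytosolic member. Without AP_OCA replicate 2, 266 genes passed in the fit reported, against 156 with a pseudocount of 0.1, 0 with no filter on low values (smallest adjusted p 0.106), 14 without trend, 113 on the deposited log2 values, 1675 with quality weights, 118 with the length and GC trend removed and 7 to 973 with 1 further library left out (973 without AP_OCA replicate 1, 119 without AP_OCA replicate 4, 7 to 14 without any other). The cytosolic members that passed were 1 in the fit reported, 2 with quality weights (Farsb and Iars), and 0 with a pseudocount of 0.1, no filter, no trend, the deposited values or the length and GC trend removed. They were 0 to 1 with 1 further library left out, as were the mitochondrial ones. The cytosolic median was 0.04 with quality weights, 0.06 with the trend removed and -0.11 to 0 with 1 further library left out. Second quantile normalisation, median centring and the deposited values changed the sign of no member. The cause of these shifts was not tested.

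Whether the shared numbers pair the libraries could not be decided. Over all 8 libraries, deviations from the group means correlated at -0.166 to 0.116 for same-numbered libraries. For differently numbered ones the range was -0.174 to 0.17. The AP_OCA mean used for these deviations included the unlike replicate 2. With the replicate block and without AP_OCA replicate 2, 559 genes passed, 28 with the length and GC trend also removed (cytosolic members 0, median 0.05), and with all 8 libraries none did. Read depth is unknown, which limits what can be said of Pars2 and other low members.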

Other observations

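The 5 genes outside the cytosolic synthetases whose log2 values most resembled the mean of the 19 cytosolic members over the 7 libraries were Uimc1 (Pearson's r 0.988), Rnf125 (0.985), Riok1 (0.985), Fmr1 (0.982) and Fam76b (0.974). They were selected as the highest among all tested genes and are given as a description, with no test.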
